A study of Mus musculus with 24 samples.

Results

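The lysosome's digestive enzymes, the proteins of its membrane and the pump that acidifies it are encoded here by 48 genes, named in advance by symbol and found by Ensembl identifier among the 55487 genes of a count table from mouse macrophage and lymphocyte co-cultures. The rule uses gene names and no expression value, but the list was drawn up with earlier results of these data known. The set holds 24 hydrolases, 9 membrane or soluble non-enzyme proteins (6 in the membrane: Lamp1, Lamp2, Cd63, Laptm5, Scarb2 and Npc1; 3 soluble: Npc2, Psap and Grn) and 15 genes of the vacuolar H+-ATPase (V-ATPase; 5 of its membrane sector V0, 8 of its cytosolic sector V1 and 2 accessory proteins). All 48 passed the filter on low counts, and the lowest count of any of them in a library was 246.

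Bone-marrow-derived macrophages (BMDMs), WT or Tmem175-/-, were grown together with spleen lymphocytes. The donors of the lymphocytes carried tumours of B16-F10-OVA, melanoma cells made to express ovalbumin. Each genotype was cultured in 4 ways: without antigen, with B16-F10-OVA tumour cell antigen, with antigen and IL-1beta at 500 pg/ml, or with antigen and IL-18 at 500 pg/ml. That gives 8 groups of 3 libraries of poly(A) RNA, 24 in all, and every group shares the same kind of lymphocytes, whose genotype the labels do not name apart from that of the BMDMs. The labels do not say whether replicates came from separate mice or cultures, so the p-values below measure the spread between these libraries, which may be technical.

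Lysosomes break down what a macrophage engulfs. Their hydrolases work at acid pH and each removes one kind of bond from glycolipids, glycosaminoglycans, glycogen, proteins, lipids or DNA. The V-ATPase keeps the interior acid: its cytosolic V1 sector splits ATP and turns a central stalk, and its membrane-bound V0 sector carries protons across. Heavily glycosylated proteins such as LAMP1 and LAMP2 line the membrane, and NPC1 and NPC2 hand cholesterol out of the lumen. Tmem175, the gene targeted in the knockout, encodes a cation channel of the same membrane.

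Libraries held 17744540 to 24898552 counts. Tmem175 (ENSMUSG00000013495) stood at 26.1, 25.5 and 24.4 CPM (counts scaled to library size) in the WT libraries without antigen and at 15, 14.1 and 14.6 CPM in the Tmem175-/- libraries. In each of the 4 conditions the 2 genotypes did not overlap, with log2 fold changes from -0.91 to -0.79, and the knockout libraries still held Tmem175 counts. The sample titles name Tmem175 in all 12 knockout libraries, while the genotype field of 11 of them names another gene; the titles were followed. T and B cell marker RNA was low beside macrophage marker RNA, and the labels do not say whether lymphocytes were removed before extraction, so how much of the RNA came from them is not known. The 10 macrophage markers summed to 12704 to 26796 CPM over the 24 libraries, 9 T cell markers to 19.4 to 60 CPM, 5 B cell markers to 7.93 to 18.9 CPM and 4 melanoma genes to no more than 0.568 CPM. Replicates 1 and 2 were the furthest apart in each Tmem175-/- group, with a chi-square per degree of freedom of 16.7 without antigen, 10.1 with antigen, 10.4 with IL-1beta and 9.08 with IL-18, where WT pairs gave 1.46 to 5.26. Without antigen, replicate 2 also differed from replicate 3 (10.5). In bulk RNA, fewer cells of a type and less RNA per cell cannot be told apart, and this holds for every difference below.

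To compare levels between genes, CPM was divided by the length of the longest transcript in kilobases. The order of genes depends on that annotated length, which may not be that of the RNA present, and the SDs do not cover this. In WT libraries without antigen, Psap (ENSMUSG00000004207), the precursor of the saposins that present lipids to hydrolases, had by far the highest level at 7624 ± 73.4 CPM per kb (SD, n = 3). Lamp1 (ENSMUSG00000031447) followed at 1011 ± 12.4 CPM per kb, then Grn, which encodes progranulin, at 645 ± 25.8 CPM per kb. Lipa (ENSMUSG00000024781), the acid lipase that releases cholesterol and fatty acids from esters, came next at 603 ± 2.97 CPM per kb. Below them Hexa, a subunit of beta-hexosaminidase, reached 519 ± 13.6 CPM per kb. Laptm5 at 389 ± 5.76 CPM per kb and Atp6v1b2, the B2 subunit of the V1 head, at 388 ± 15.8 CPM per kb could not be ordered beyond their spread. The lowest was Arsa, which removes sulfate from sulfatides, at 9.46 ± 0.494 CPM per kb, and Sgsh (11.1 ± 0.703), Smpd1 (11.3 ± 0.0608) and Arsb (11.7 ± 0.824 CPM per kb) followed without an order beyond their spread. With antigen, Psap, Lamp1 and Grn kept the first 3 ranks in WT libraries, while Lipa dropped from rank 4 to rank 13. Replicates were close: the coefficient of variation of a member within a group, pooled over the 8 groups, had a median of 3.62% over the 48 genes and ranged from 1.98% to 9.2%.

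TFEB, TFE3 and MITF are related transcription factors that bind the E-box CACGTG and longer forms of it upstream of many lysosomal genes, so the promoters were searched for it. RefSeq windows on GRCm38.p6, from 250 bases before to 50 bases after each gene's start, matched 42 of the 48 genes. CACGTG occurred in 11 of the 42 (26.2%), against 11.6% of the 10220 tested genes with a window and 8.09% of all 27025 genes with one. TCACGTGA occurred in 4 of the 42 (9.52%), against 2.18% of tested genes, and its 10-base form, with G before and C after, in 0 of the 42, against 0.802% of tested genes. These 3 motifs read the same on both strands, and each longer one contains the shorter. By class, CACGTG lay in 6 of 23 hydrolase windows, 1 of 8 windows of the membrane and soluble proteins and 4 of 11 V-ATPase windows. A match describes letters and is not a measured binding site.

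The 5 promoters below are shown because their genes span the responses described next: 2 genes that fell furthest with antigen (Lipa, Atp6v0a1), 1 V1 gene that fell (Atp6v1a), 1 hydrolase that rose (Gla) and Lamp1, which was not called. Each is the 250 bases before the start, 5′ to 3′ on the gene's strand, with CACGTG or TCACGTGA in capitals. Lamp1 lies at chr8:13158911-13159160, plus strand; Gla at chrX:134601006-134601255, minus strand; Atp6v1a at chr16:44139260-44139509, minus strand.
Lipa lies at chr19:34527475-34527724, minus strand, and Atp6v0a1 at chr11:101010148-101010397, plus strand.
Lamp1: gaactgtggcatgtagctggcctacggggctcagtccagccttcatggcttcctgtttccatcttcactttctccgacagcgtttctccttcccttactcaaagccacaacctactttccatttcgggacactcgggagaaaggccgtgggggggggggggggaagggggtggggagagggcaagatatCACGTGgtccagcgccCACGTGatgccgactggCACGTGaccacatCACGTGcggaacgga
Gla: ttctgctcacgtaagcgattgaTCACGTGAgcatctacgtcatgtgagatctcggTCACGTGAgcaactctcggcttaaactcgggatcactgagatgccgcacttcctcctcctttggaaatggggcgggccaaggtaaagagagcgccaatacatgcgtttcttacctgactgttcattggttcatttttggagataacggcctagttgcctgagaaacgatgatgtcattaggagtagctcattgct
Atp6v1a: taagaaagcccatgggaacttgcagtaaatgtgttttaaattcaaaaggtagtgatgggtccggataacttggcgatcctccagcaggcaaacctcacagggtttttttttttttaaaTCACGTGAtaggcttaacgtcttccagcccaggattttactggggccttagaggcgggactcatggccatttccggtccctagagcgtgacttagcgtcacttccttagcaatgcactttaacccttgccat
Lipa: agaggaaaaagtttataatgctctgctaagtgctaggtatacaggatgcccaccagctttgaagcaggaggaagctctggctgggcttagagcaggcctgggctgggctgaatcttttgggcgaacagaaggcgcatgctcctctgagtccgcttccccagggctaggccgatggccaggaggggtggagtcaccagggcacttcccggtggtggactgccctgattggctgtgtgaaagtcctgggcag
Atp6v0a1: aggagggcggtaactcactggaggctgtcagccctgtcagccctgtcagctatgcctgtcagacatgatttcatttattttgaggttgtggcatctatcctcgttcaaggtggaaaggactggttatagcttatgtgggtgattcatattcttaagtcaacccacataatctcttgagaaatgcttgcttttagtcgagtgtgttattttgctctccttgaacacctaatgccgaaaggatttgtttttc
Lamp1 held 4 copies of CACGTG, beginning 61, 45, 28 and 15 bases before the start, a number reached by 6 of the 27025 genes with a window. Gla held TCACGTGA in 2 places, with CACGTG beginning 227 and 194 bases before the start, and Atp6v1a held it once, with CACGTG beginning 131 bases before. The windows of Lipa and Atp6v0a1 held none of the 3 motifs.

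Most of these RNAs were lower with tumour antigen in WT co-cultures, and by their medians the hydrolases differed more than the membrane proteins. Of the 48 genes, 30 fell and 10 rose (edgeR quasi-likelihood test, Benjamini-Hochberg adjusted p under 0.05 over all 14099 genes tested), against 68% of all genes tested called in either direction, 34.5% lower and 33.5% higher. The median log2 fold change was -0.26 over the 48 genes and 0 over all genes. Of the 24 hydrolases 15 fell and 7 rose (median -0.46), of the 15 V-ATPase genes 11 fell and 1 rose (median -0.23), and of the 9 membrane and soluble proteins 4 fell and 2 rose (median -0.03). In the Tmem175-/- co-cultures, whose libraries are all different ones, 34 fell and 8 rose (median -0.29), against 68.3% of all genes called, 34.6% lower and 33.8% higher. The groups with and without antigen did not overlap for 42 of the 48 genes in WT and 41 in Tmem175-/-, against 71.8% and 70.5% of all genes tested. In both genotypes 30 of the 48 genes fell, against 29.9% of all genes tested, 8 rose, against 29%, and 0 changed in opposite directions, against 0.34%.

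**Figure D1:**
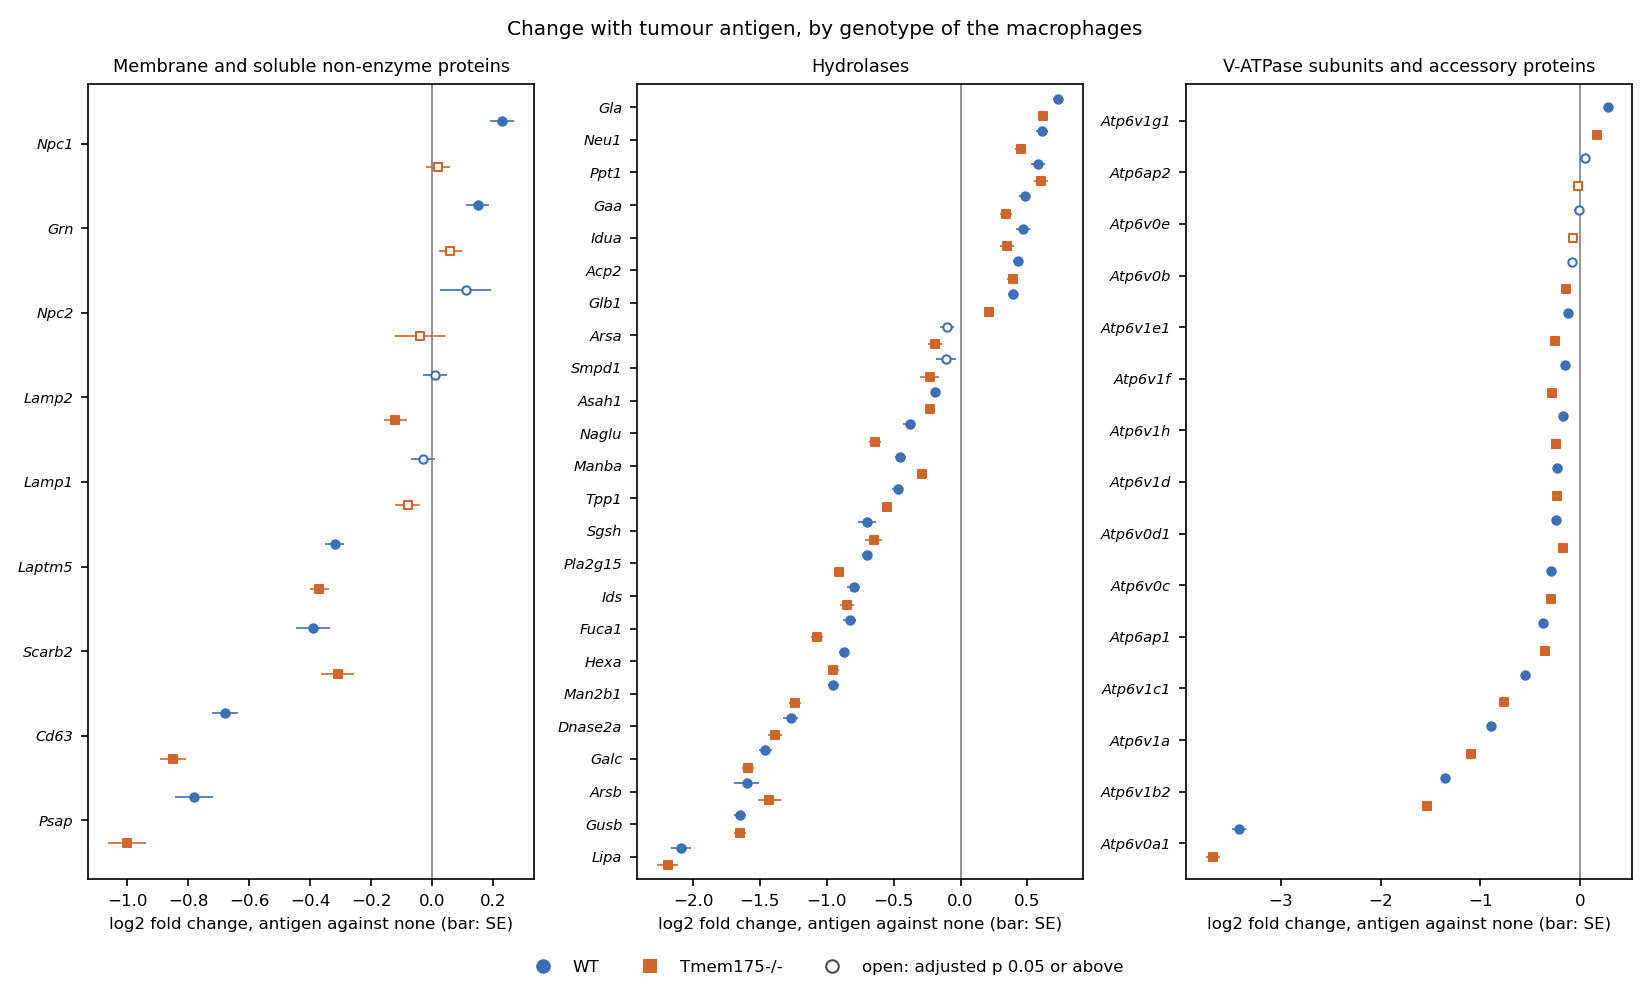
Log2 fold change with antigen against none (x axis, bar: standard error) of each member, ordered by its WT value, with WT as blue circles, Tmem175-/- as orange squares and open symbols where the adjusted p was 0.05 or above. Hydrolases spread from -2.09 for Lipa to 0.73 for Gla in WT, while Atp6v0a1 stands apart among the pump genes at -3.42.

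Among the hydrolases, Lipa fell furthest. It was at 2360, 2349 and 2337 CPM in WT libraries without antigen and at 546, 574 and 535 CPM with antigen. In the Tmem175-/- libraries it went from 2939, 2673 and 2884 CPM to 580, 668 and 609 CPM. No library with antigen came near any without, and the fold was 4.26 lower in WT (log2 -2.09 ± 0.0771, SE; edgeR adjusted p 5.48e-15) and 4.58 lower in Tmem175-/-. Gusb, the beta-glucuronidase that trims glycosaminoglycans, was at 729, 739 and 710 CPM without and 227, 236 and 230 CPM with antigen in WT. Arsb, which removes sulfate from dermatan sulfate, was at 45, 51.1 and 45.9 CPM without and 13.9, 18.1 and 14.3 CPM with antigen. Gusb was thus 3.14-fold and Arsb 3.04-fold lower, in groups that did not overlap, and in Tmem175-/- they were 3.13-fold and 2.7-fold lower. Galc, which splits galactosylceramide, fell by 1.46 on the log2 scale in WT and by 1.59 in Tmem175-/-, and Dnase2a, the acid DNase, fell by 1.27 and 1.39.

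Counts by substrate are small, and they stand beside 34.5% of all genes lower and 33.5% higher in WT. All 6 glycosaminoglycan enzymes were called in both genotypes, 5 lower and 1, the iduronidase Idua, higher. Of the 5 enzymes of glycogen and glycoprotein breakdown, Man2b1, Manba and Fuca1, which remove mannose and fucose, fell, and Gaa, which splits glycogen, and the sialidase Neu1 rose. Of the 7 sphingolipid enzymes, Hexa, Galc and the ceramidase Asah1 fell in both genotypes, Glb1 and Gla rose in both, and Arsa and Smpd1 passed the threshold in Tmem175-/- but not in WT. The test of that difference between genotypes did not pass for Arsa (-0.09) or Smpd1 (-0.12). Sphingolipid enzymes, with 3 of 7 lower and 2 higher in WT, were near the shares of all genes. Of the 6 enzymes of protein, lipid, phosphate and DNA breakdown, Tpp1, Lipa, Pla2g15 and Dnase2a fell and Ppt1 and Acp2 rose, in both genotypes.

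Gla, Neu1 and Ppt1 rose most. Gla (ENSMUSG00000031266), the alpha-galactosidase, was at 218, 216 and 212 CPM in WT libraries without and at 356, 363 and 357 CPM with antigen. The sialidase Neu1 was at 65.2, 62.8 and 67.7 CPM without and at 93.4, 104 and 101 CPM with antigen. Ppt1, which removes palmitate from proteins, was at 131, 128 and 125 CPM without and at 187, 198 and 189 CPM with antigen. In all 3 every library with antigen exceeded every one without, and the folds were 1.66, 1.53 and 1.5 in WT and 1.54, 1.37 and 1.52 in Tmem175-/-. Gaa, Idua, the acid phosphatase Acp2 and the beta-galactosidase Glb1 rose by 0.39 to 0.48 on the log2 scale in WT. Of the 8 windows of WT risers 3 held CACGTG, of the 26 windows of WT fallers 4 did, and of the 8 windows of genes not called 4 did. Among the risers Gla, Gaa and Glb1 held it, and Neu1, Ppt1, Idua, Acp2 and Grn did not. The fallers that held it were Naglu, Sgsh, Atp6v0d1 and Atp6v1a.

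**Figure D2:**
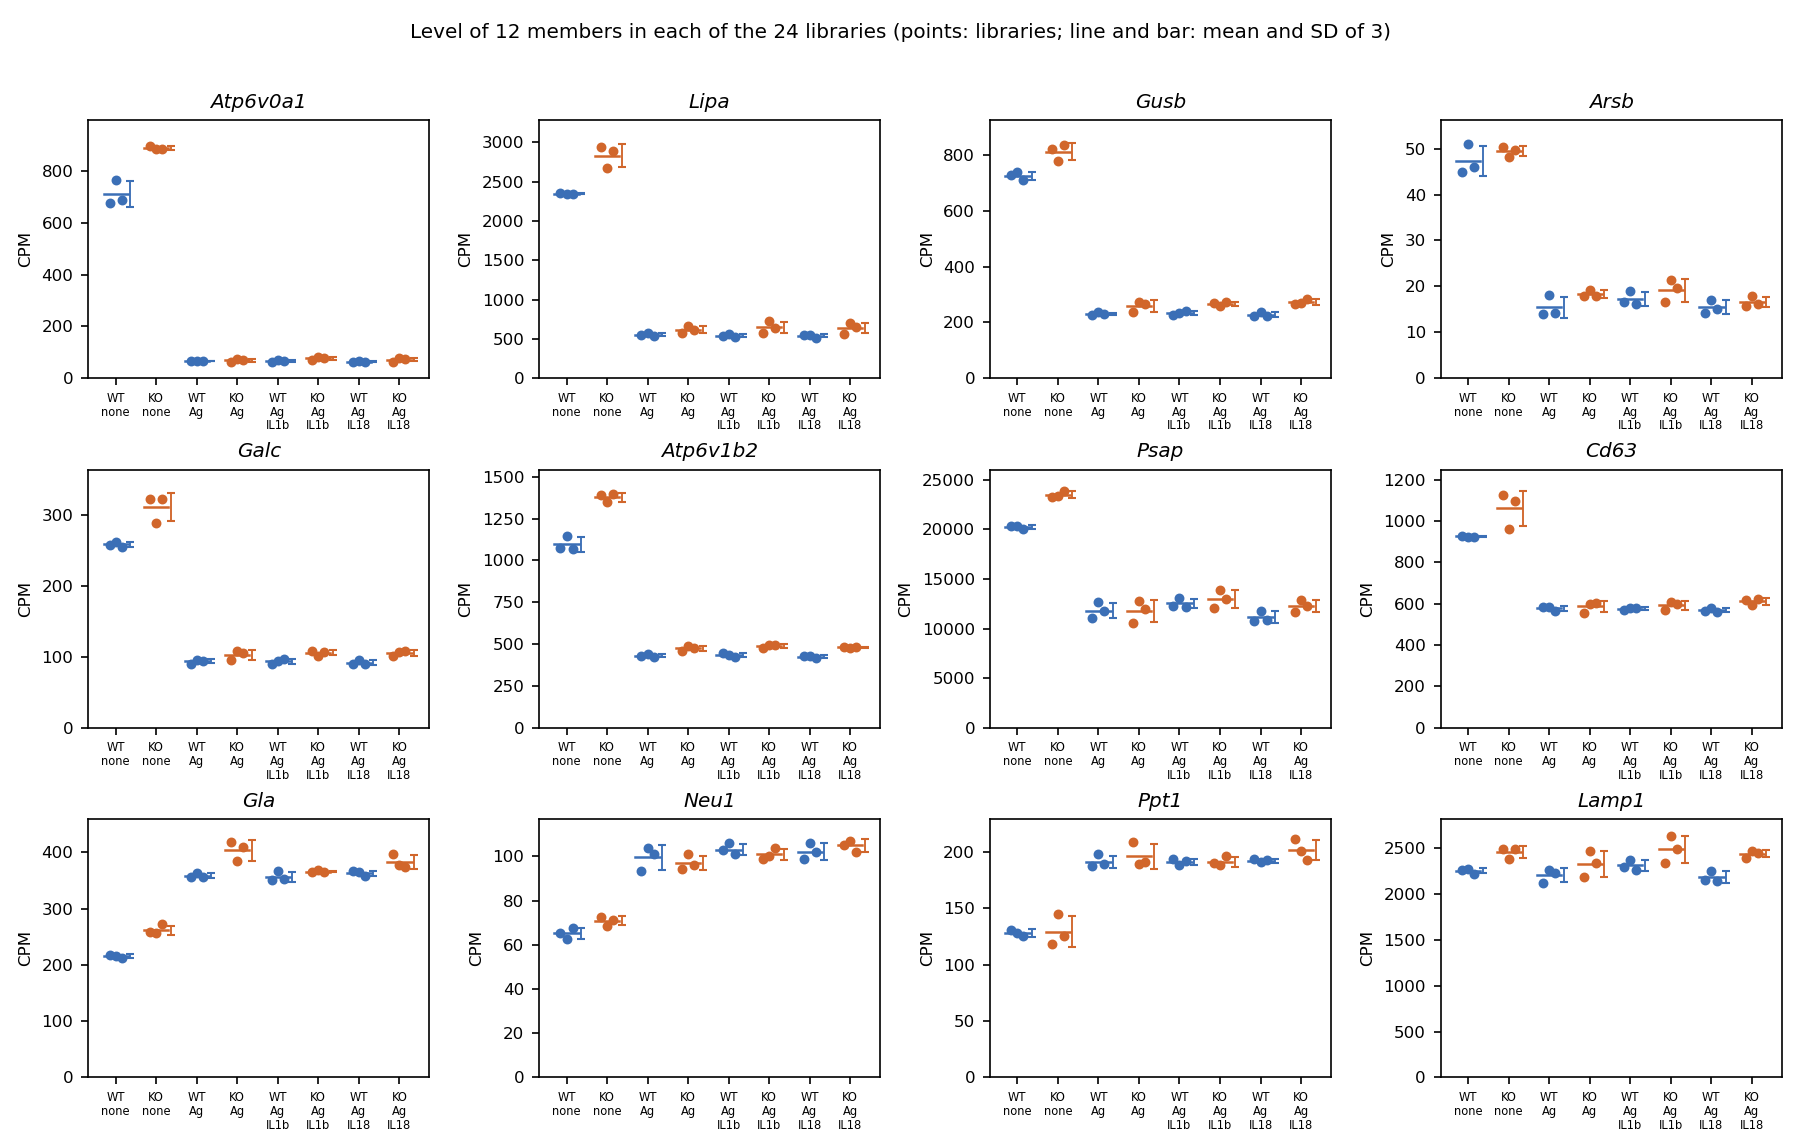
CPM (y axis, from 0) of 12 members in each of the 24 libraries by group (x axis; WT blue, KO for Tmem175-/- orange, Ag for antigen; points are libraries, the line and bar the mean and SD of 3). Atp6v0a1, Lipa, Gusb, Arsb, Galc, Atp6v1b2, Psap and Cd63 are lower in all groups with antigen, Gla, Neu1 and Ppt1 higher, and Lamp1 lies between 2127 and 2498 CPM in the 4 groups without added cytokine.

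Membrane and soluble proteins moved less. Psap was at 20348, 20389 and 20032 CPM in WT libraries without and 11045, 12646 and 11777 CPM with antigen, and in Tmem175-/- it went from 23258, 23402 and 23872 CPM to 10598, 12769 and 11963 CPM. Psap was 1.71-fold lower in WT (edgeR adjusted p 4.16e-10) and 2-fold lower in Tmem175-/-, with no overlap. Cd63, a tetraspanin of late endosomes, was at 930, 923 and 924 CPM without and 582, 586 and 565 CPM with antigen in WT. Scarb2, the receptor that carries glucocerebrosidase to the lysosome, was at 264, 263 and 254 CPM without and 183, 216 and 198 CPM with antigen. Both were lower in every library with antigen, Cd63 by 1.6-fold and Scarb2 by 1.31-fold. Lamp1, with its 4 E-boxes, was at 2261, 2278 and 2224 CPM without and 2127, 2265 and 2235 CPM with antigen. Those ranges overlapped, and it was not called in WT (log2 -0.03 ± 0.0404) or in Tmem175-/- (-0.08 ± 0.0404). Laptm5, a lysosomal membrane protein of blood cells, fell by 0.32 in WT and by 0.37 in Tmem175-/-. Npc1 (0.23) and Grn (0.15) rose in WT, and in Tmem175-/- their values were 0.02 and 0.06, not called.

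The pump's subunits did not move as one. Atp6v0a1 (ENSMUSG00000019302), the a1 subunit of the V0 proton path, was at 678, 768 and 687 CPM in WT libraries without antigen and at 65.2, 66.4 and 67 CPM with it. In Tmem175-/- it went from 899, 885 and 886 CPM to 64, 75.2 and 68.9 CPM. It had the largest fold of all 48 genes, 10.7-fold lower in WT (log2 -3.42 ± 0.0675; edgeR adjusted p 4.06e-22) and 12.8-fold lower in Tmem175-/-. In the V1 head, Atp6v1b2 (ENSMUSG00000006273) was at 1072, 1147 and 1069 CPM without and 427, 441 and 425 CPM with antigen in WT. Atp6v1a, its catalytic partner, was at 1006, 1046 and 1010 CPM without and 543, 567 and 540 CPM with antigen. Groups did not overlap for either, and Atp6v1b2 was 2.54-fold and Atp6v1a 1.85-fold lower. Atp6v1c1, which joins V1 to V0, fell by 0.55 in WT. The other called V1 and V0 genes, the stalk, ring and regulatory subunits Atp6v1d, Atp6v1e1, Atp6v1f, Atp6v1h, Atp6v0c and Atp6v0d1, fell by 0.12 to 0.29, and Atp6v1g1, a stator subunit, rose by 0.28. The ring subunit Atp6v0b, Atp6v0e and the accessory Atp6ap2 were not called in WT, whereas Atp6ap1 fell by 0.37.

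Because Atp6v0a1 has relatives that can fill the same place in the pump, their levels were set side by side. Tcirg1 (the a3 subunit) and Atp6v0a2 are not among the 48 and were chosen after their values were seen; Atp6v0d2, the second d subunit, known from osteoclasts, is named as the gene with the largest change on a list of other lysosomal genes. Atp6v0a4, another a subunit, did not pass the filter on low counts and was left out of the shares. The shares, too, depend on the length of the longest transcript. Per kilobase, Atp6v0a1 made up 52.4%, 55.5% and 52.3% of the RNA of these 3 a subunits in WT libraries without antigen and 16.2%, 15.1% and 15.9% with antigen. The share of Tcirg1 went from 43.2% ± 1.63 (SD, n = 3) to 71.5% ± 0.982, although Tcirg1 itself fell by 0.93 on the log2 scale. The share of Atp6v0a2, whose RNA rose by 0.25, went from 3.38% ± 0.188 to 12.7% ± 0.483. Atp6v0a1 thus held the largest share without antigen and Tcirg1 the largest with it, in every WT library and, at 56.2% ± 0.626 to 15.4% ± 0.466 for Atp6v0a1, in every Tmem175-/- library.

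The d subunits changed places as well. Atp6v0d2 was at 1253, 1254 and 1234 CPM in WT libraries without and at 67.5, 85 and 75.2 CPM with antigen, 16.4-fold lower (log2 -4.04 ± 0.169; edgeR adjusted p 4.53e-13). Atp6v0d1 was at 167, 173 and 172 CPM without and 138, 152 and 144 CPM with antigen, 1.18-fold lower. Per kilobase, Atp6v0d2 supplied 82.4% ± 0.357 of the d-subunit RNA without antigen and 25.1% ± 1.28 with it in WT, and 86.5% ± 0.31 and 32.6% ± 4.91 in Tmem175-/-. With antigen Atp6v0d1 was therefore the larger part in all 6 libraries without cytokine.

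**Figure D3:**
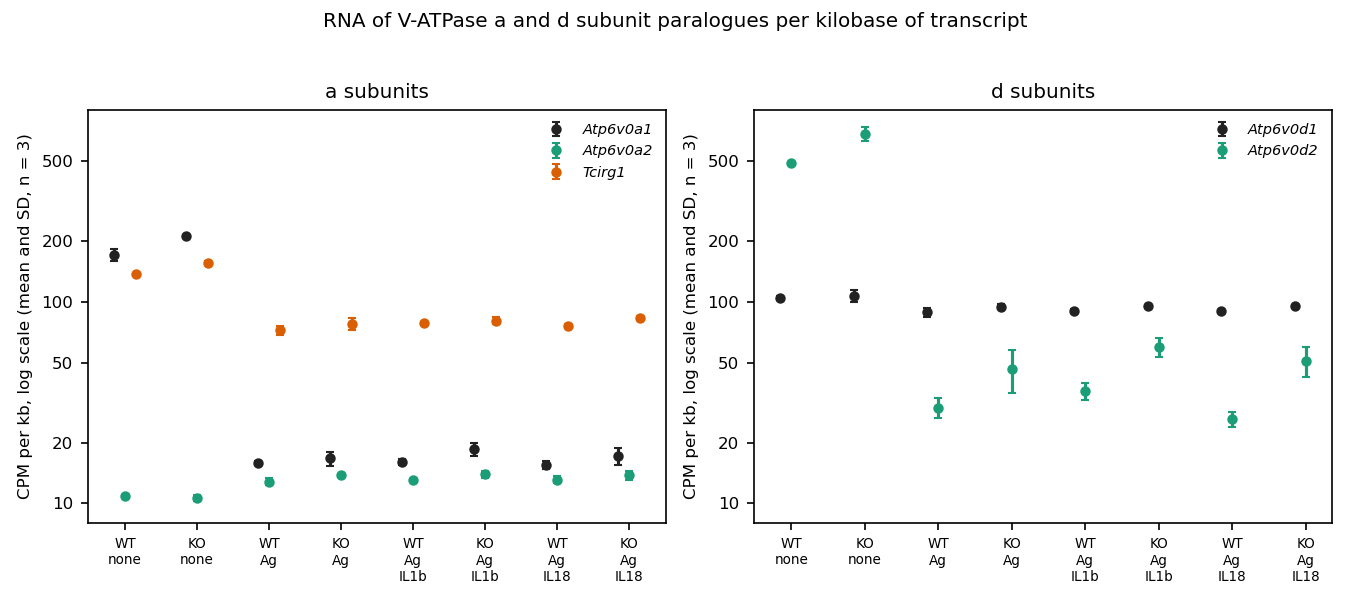
CPM per kilobase (y axis, log scale; mean and SD of 3 libraries) of the V-ATPase a subunits (left) and d subunits (right) in the 8 groups (x axis; KO for Tmem175-/-, Ag for antigen). Atp6v0a1 drops below Tcirg1, and Atp6v0d2 below Atp6v0d1, in all 6 groups with antigen.

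Markers of other cells moved with antigen in the same libraries, and their part in these differences was not tested. Of all genes tested, 34.5% were lower and 33.5% higher with antigen in WT, and 34.6% and 33.8% in Tmem175-/-. Of 10 macrophage markers 6 rose and 3 fell in WT, and their sum went from 18069 to 18553 CPM without antigen to 25487 to 26796 CPM with it. Of 5 osteoclast-like markers, which include Atp6v0d2 and Acp5, 4 fell and Acp5 rose, and the sum went from 1343 to 1366 CPM to 299 to 310 CPM. Atp6v0d2 made up most of that sum without antigen, and Acp5 most of it with antigen. All 6 neutrophil markers fell, from 1199 to 1341 CPM to 371 to 453 CPM, and all 4 markers of dividing cells fell, from 558 to 561 CPM to 229 to 249 CPM. T cell markers went from 54.3 to 60 CPM to 28.9 to 34.3 CPM, with 1 of 9 higher and 1 lower. Their median log2 fold change was 0.05 and the lowest -1.46, so this sum does not describe the list as a whole. Fibroblast markers, with 4 of 5 higher, went from 24 to 83.2 CPM to 112 to 171 CPM, and 3 of 5 B cell markers and 1 of 5 plasma cell markers rose. In Tmem175-/- 6 of 10 macrophage, 5 of 9 T cell, 4 of 5 B cell and 2 of 5 fibroblast markers rose. There 5 of 6 neutrophil, 4 of 5 osteoclast-like and 3 of 4 dividing cell markers fell. No gene of these lists was at 0 throughout a group.

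Without antigen the Tmem175-/- co-cultures had slightly more of these RNAs. Of the 48 genes 24 were higher and 0 lower than in WT (edgeR, adjusted p under 0.05), against 16.9% of all genes tested called, 9.62% higher and 7.25% lower. The median log2 fold change was 0.13, against 0.01 over all genes, and 45 of the 48 values were above 0. No difference reached 1.5-fold, and none passed a test against a minimum fold of 1.2, which 687 of all genes tested passed. Higher were 11 of 24 hydrolases (median 0.11), 5 of 9 membrane and soluble proteins (median 0.13) and 8 of 15 pump genes (median 0.14), the last being 6 of 8 in V1, 1 of 5 in V0 and 1 of the 2 accessory genes. The 2 groups did not overlap for 32 of the 48 genes, against 30.9% of all genes tested.

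Naglu, Dnase2a and Gla led the hydrolases. Naglu, which removes N-acetylglucosamine from heparan sulfate, was at 75.1, 74.1 and 68.9 CPM in WT and 90.3, 90.2 and 91.6 CPM in Tmem175-/-. Dnase2a was at 117, 125 and 118 CPM in WT and 155, 132 and 155 CPM in Tmem175-/-. Gla was at 259, 257 and 272 CPM in Tmem175-/-, against the WT values above. All 3 had every knockout library above every WT library, and the log2 fold changes were 0.32 ± 0.0461, 0.30 ± 0.0505 and 0.28 ± 0.0349 (edgeR adjusted p 7.72e-06, 6.73e-05 and 5.8e-07). Replicate 2 was the lowest knockout library for Dnase2a, as it was for the summed pump genes. Without that library 27 of the 48 genes were higher, and 2624 of all genes were called, against 2379 with it.

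Among the pump genes Atp6v1b2 was at 1390, 1347 and 1396 CPM in Tmem175-/- without antigen, all above the WT range of 1069 to 1147 CPM. Atp6v0a1 was 1.25-fold higher in Tmem175-/-, and its knockout range of 885 to 899 CPM lay above the WT range of 678 to 768 CPM. Atp6v1c1 was at 280, 290 and 272 CPM in WT and 372, 308 and 357 CPM in Tmem175-/-. These 3 were separate from WT, with log2 fold changes of 0.33 ± 0.0328, 0.32 ± 0.0595 and 0.30 ± 0.0447 (edgeR adjusted p 1.34e-08, 0.000389 and 1.15e-05). Among the other proteins, Psap was 1.16-fold higher (adjusted p 0.0191 by edgeR) and Cd63, at 1126, 963 and 1095 CPM in Tmem175-/-, was 1.15-fold higher. Npc2 was at 1351, 1383 and 1364 CPM in WT and 1389, 1768 and 1485 CPM in Tmem175-/-, separate but not called (0.18 ± 0.0823). The calls of 15 of the 24 genes held in every fit that left out 1 library, those named here except Psap among them; Psap lost its call without WT replicate 1 or 3 or without Tmem175-/- replicate 2 or 3.

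**Figure D4:**
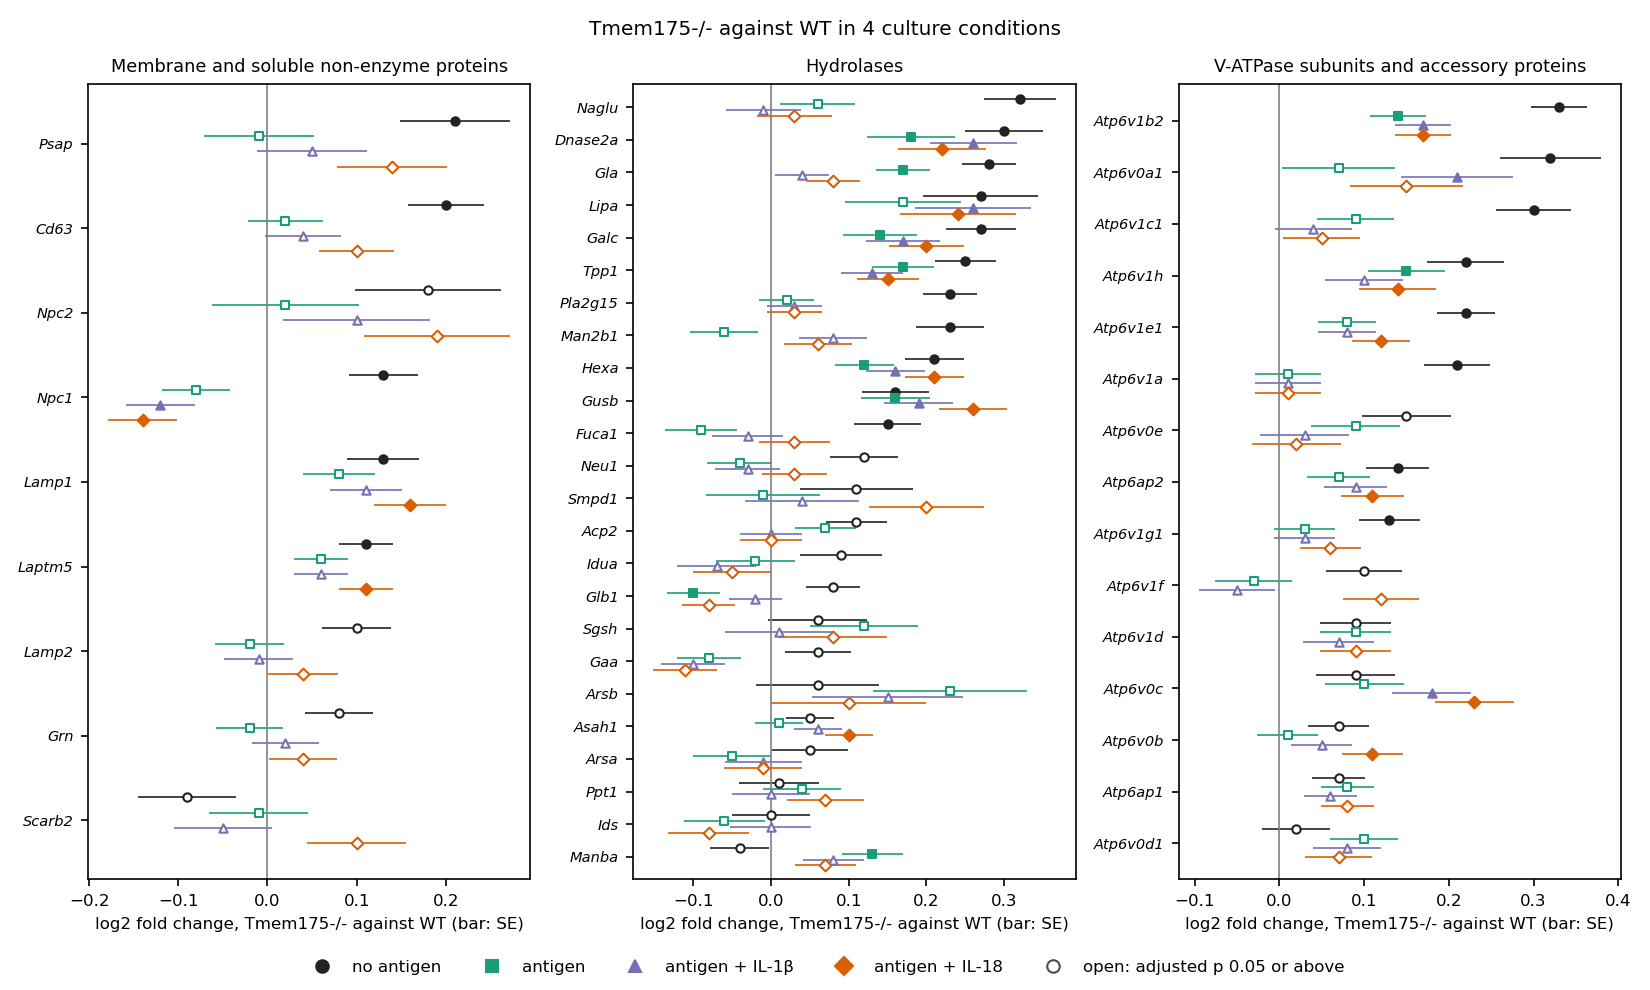
Log2 fold change of Tmem175-/- against WT (x axis, bar: standard error) of each member in the 4 culture conditions, shown by colour and shape, with open symbols where the adjusted p was 0.05 or above. Values without antigen (black) reach 0.33, and with antigen (green) the membrane and soluble proteins lie between -0.08 and 0.08.

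With antigen, fewer members differed by genotype: 9 were higher and 1 lower in Tmem175-/-, against 15.3% of all genes called, 7.7% higher and 7.62% lower. The median was 0.06, against 0 over all genes, and the genotypes did not overlap for 18 of the 48 genes, against 31% of all genes. The 10 were 8 hydrolases and 2 V1 genes, and none of the 9 membrane and soluble proteins was called by edgeR (the largest were Lamp1 at 0.08, Npc1 at -0.08 and Laptm5 at 0.06). Gla was at 356, 363 and 357 CPM in WT and 419, 384 and 410 CPM in Tmem175-/-. The protease Tpp1, which trims peptides, was at 255, 270 and 270 CPM in WT and 294, 299 and 301 CPM in Tmem175-/-. Dnase2a was at 46.5, 49.6 and 52.9 CPM in WT and 54.4, 57.6 and 57.1 CPM in Tmem175-/-. In all 3 the knockout libraries were the higher, by 1.13-fold each.

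Arsb had the largest hydrolase value, 0.23 ± 0.0988, but its libraries overlapped (17.8, 19.3 and 17.9 CPM in Tmem175-/-) and it was not called. In V1, Atp6v1h was at 123, 119 and 117 CPM in WT and 132, 130 and 135 CPM in Tmem175-/-, and Atp6v1b2 at 460, 489 and 475 CPM in Tmem175-/- was above its WT range of 425 to 441 CPM. Their log2 fold changes were 0.15 ± 0.0454 and 0.14 ± 0.0332. The next pump genes, Atp6v0c and Atp6v0d1, had 0.10 each and were not called. The 1 lower gene was Glb1, at 142, 146 and 142 CPM in WT and 132, 132 and 138 CPM in Tmem175-/- (edgeR adjusted p 0.0424). Single libraries decided most of the 10 calls. The count was 5 without WT replicate 1, 6 without WT replicate 3, 5 without Tmem175-/- replicate 2 and 4 without Tmem175-/- replicate 3. All genes called were then 1744, 1642, 1939 and 1700, against 2160 with all libraries. Gla, Tpp1 and Atp6v1b2 were the 3 that kept their call in every fit that left out 1 library.

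With antigen and IL-1beta, 9 members were higher and 1 lower in Tmem175-/- (median 0.05). Of all genes, 13.8% were called, 7.22% higher and 6.55% lower. For 19 members the genotypes did not overlap, against 31.6% of all genes. The count of members called was 6 without replicate 1 or 3 of WT or replicate 2 or 3 of Tmem175-/-. All genes called were then 1321, 1457, 1394 and 1456, against 1941 with all libraries. With antigen and IL-18, 15 were higher and 1 lower, against 20.2% of all genes called, 9.89% higher and 10.3% lower (median 0.08), and 27 did not overlap, against 35% of all genes. Without WT replicate 3 the count with IL-18 was 8, and all genes called were 1867, against 2851 with all libraries. Npc1 was the lower gene in both. Over the 4 conditions, whose libraries are all different, 28 of the 48 genes were higher in at least 1, 2 (Glb1 and Npc1) were lower in at least 1, and 19 were called in none. Of all genes tested, 19% were higher in at least 1 condition, 18% lower in at least 1, 64.6% called in none and 2.59% higher in all 4. The 6 genes higher in all 4 were Hexa, Galc, Gusb, Tpp1, Dnase2a and Atp6v1b2. Of these, Atp6v1b2 alone kept its call in each condition in every fit that left out 1 library. Hexa, Galc, Gusb and Dnase2a lost the call with antigen without Tmem175-/- replicate 2 of that group, among others, and Tpp1 lost it with IL-1beta and with IL-18 in such fits. Gusb was at 269, 259 and 272 CPM with IL-1beta and 267, 269 and 284 CPM with IL-18 in Tmem175-/-, against 227, 234 and 241 CPM and 224, 239 and 222 CPM in WT. Its knockout libraries were the higher in every condition, but with antigen alone the lowest knockout and the highest WT library both rounded to 236 CPM. The log2 fold changes were 0.16 without antigen, 0.16 with antigen, 0.19 with IL-1beta and 0.26 with IL-18.

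Cell markers also differed by genotype without antigen, and their part was not tested. Of all genes tested, 9.62% were higher and 7.25% lower in Tmem175-/- without antigen, and 7.7% and 7.62% with it. The macrophage markers summed to 12704 to 13107 CPM in Tmem175-/- and 18069 to 18553 CPM in WT, with 2 of 10 higher, 4 lower and a median log2 fold change of -0.11. Their lowest value was -3.11, so this sum does not describe the list as a whole. The osteoclast-like markers summed to 1711 to 2003 CPM against 1343 to 1366 CPM, with 3 of 5 higher and 1 lower. Most of the WT sum was the d subunit Atp6v0d2 described above. Plasma cell markers summed to 481 to 539 CPM against 269 to 272 CPM, with 4 of 5 higher, and the 4 markers of dividing cells, all lower, to 442 to 454 CPM against 558 to 561 CPM. T cell markers, with 1 of 9 lower, summed to 21.7 to 23.1 CPM against 54.3 to 60 CPM. Here too the sum does not describe the list, whose median log2 fold change was -0.07 and lowest -2.10. Of the fibroblast markers 2 of 5 were lower, at 11.6 to 25.1 CPM against 24 to 83.2 CPM, and 3 of 5 B cell markers were lower. With antigen the macrophage sum was 15258 to 17785 CPM in Tmem175-/- and 25487 to 26796 CPM in WT, with 2 of 10 higher, 3 lower and a median log2 fold change of -0.07. The lowest value was -2.24, and again the sum does not describe the list. Fibroblast markers, 4 of 5 lower, then summed to 37.8 to 45.5 CPM against 112 to 171 CPM, and plasma cell markers, 4 of 5 higher and 1 lower, to 392 to 413 CPM against 267 to 281 CPM. The osteoclast-like sum, with 3 of 5 higher, was 376 to 470 CPM against 299 to 310 CPM. Markers of dividing cells, lower without antigen, were higher with it for 3 of 4, at 279 to 314 CPM against 229 to 249 CPM.

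The change with antigen itself differed between genotypes for 9 of the 48 genes, all in the negative direction, against 8.39% of all genes tested, 3.79% higher and 4.6% lower. The median difference was -0.11, against -0.01 over all genes. The 9 were the 5 hydrolases Glb1, Naglu, Man2b1, Fuca1 and Pla2g15, the 3 V1 genes Atp6v1a, Atp6v1b2 and Atp6v1c1, and Npc1. Man2b1 (ENSMUSG00000005142) was at 1020, 1003 and 991 CPM in WT and 1177, 1169 and 1198 CPM in Tmem175-/- without antigen, and at 494, 544 and 519 CPM and 458, 528 and 509 CPM with it. Pla2g15, the lysosomal phospholipase, was at 217, 227 and 226 CPM and 252, 268 and 266 CPM without antigen, and at 134, 141 and 138 CPM and 139, 141 and 138 CPM with it. For both, the knockout libraries were higher without antigen, and the genotypes overlapped with it. The differences of log2 response were -0.29 ± 0.0616 and -0.21 ± 0.0493 (edgeR adjusted p 0.00268 and 0.00604), and these 2 were the calls that held in every fit that left out 1 library.

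Npc1 was at 388, 392 and 388 CPM in WT and 441, 412 and 428 CPM in Tmem175-/- without antigen. With antigen it was at 455, 470 and 446 CPM in WT and 422, 444 and 429 CPM in Tmem175-/-. The order of the genotypes thus turned round, each time without overlap, although the genotype difference with antigen alone was not called (-0.08). The difference of response was -0.22 ± 0.0545 for Npc1 and -0.19 ± 0.0466 for Atp6v1b2. Without replicate 1 of the Tmem175-/- antigen group, 3 of the 48 genes were called. All genes called were then 834, against 1183 with all libraries.

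Summed over each class, hydrolases were at 8274 to 8404 CPM in WT libraries without antigen, 9341 to 9739 CPM in Tmem175-/- without antigen, 4667 to 4901 CPM in WT with antigen and 4880 to 5147 CPM in Tmem175-/- with antigen. Pump genes were at 5064 to 5301, 5738 to 6177, 3079 to 3138 and 3237 to 3295 CPM in the same order. The 9 membrane and soluble proteins were at 28631 to 29249, 32554 to 33433, 19185 to 21381 and 18796 to 21669 CPM. With antigen the genotypes overlapped for the membrane proteins and, by a narrow margin, for the hydrolases, but not for the pump genes. These sums are not corrected for length and follow the most counted genes: Psap gave 47.7% of the summed CPM of all 48 genes in WT libraries without antigen and 42% with it. Without Psap the other 47 genes summed to 22187 ± 331 CPM and 16295 ± 436 CPM.

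**Figure D5:**
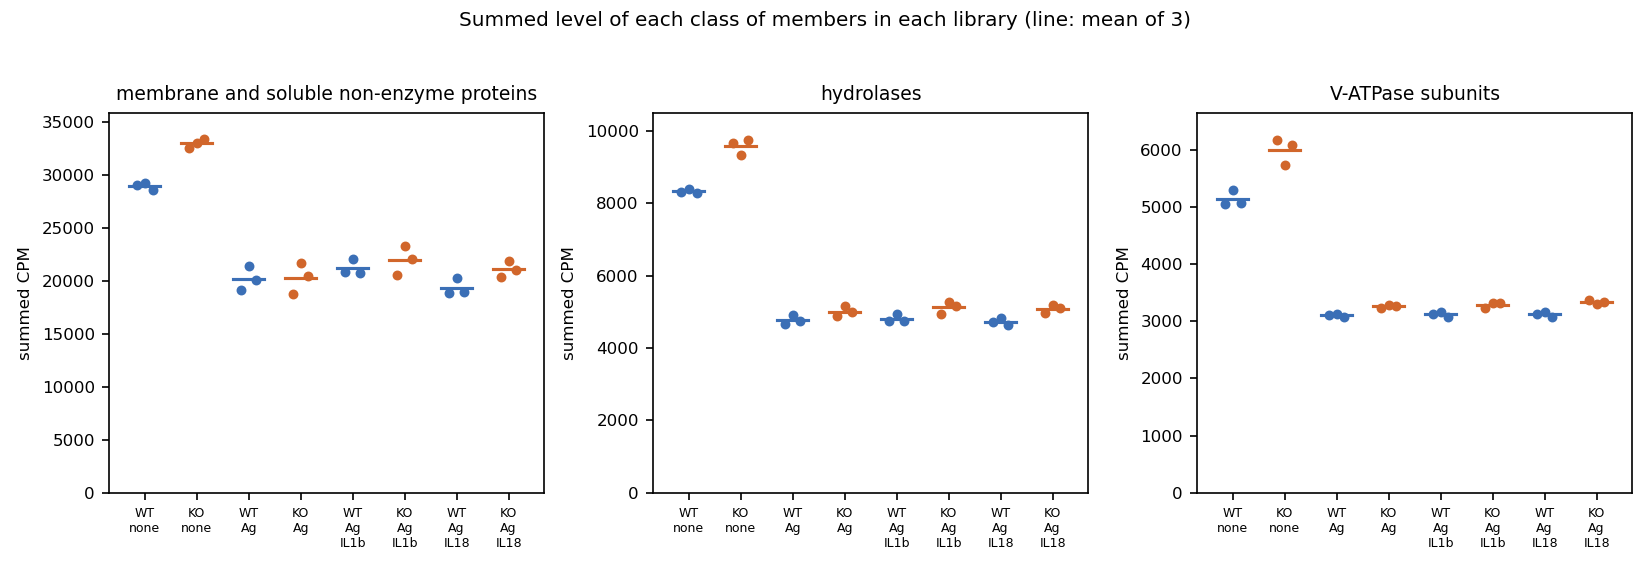
Summed CPM (y axis, from 0) of the 9 membrane and soluble proteins, the 24 hydrolases and the 15 V-ATPase genes in each library by group (x axis; WT blue, KO for Tmem175-/- orange, Ag for antigen; points are libraries, lines group means). All 3 sums are highest in Tmem175-/- without antigen and lower in the 6 groups with antigen.

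For the cytokines, edgeR called 0 of the 48 genes for IL-1beta added to antigen in WT and in Tmem175-/- and for IL-18 in WT and in Tmem175-/-, where 0.0567%, 0.0426%, 0% and 0.213% of all genes tested were called. Of all genes, IL-1beta gave 0.0284% higher and 0.0284% lower calls in WT and 0.0426% higher and 0% lower in Tmem175-/-, and IL-18 gave 0.0496% higher and 0.163% lower in Tmem175-/-. At an unadjusted p under 0.05 the counts were 4, 9, 1 and 7 of the 48, against 9.36%, 13.3%, 4.11% and 12.4% of all genes. DESeq2 called 0, 1, 0 and 2 of the 48, beside 9, 44, 1 and 237 of all genes. The largest values were 0.17 ± 0.0553 for Scarb2 with IL-1beta in WT, 0.15 ± 0.0658 for Atp6v0a1 with IL-1beta in Tmem175-/-, -0.17 ± 0.0749 for Smpd1, the sphingomyelinase, with IL-18 in WT and -0.14 ± 0.0975 for Arsb with IL-18 in Tmem175-/-. Scarb2 was at 219, 232 and 223 CPM with IL-1beta against 183, 216 and 198 CPM with antigen alone, separate but not called.

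The transcription factors named above were measured in the same libraries. Tfeb was at 31.7, 34.2 and 31.7 CPM in WT libraries without antigen and 12.3, 12.5 and 12.1 CPM with it. Tfeb fell by 1.40 on the log2 scale in WT and by 1.76 in Tmem175-/-, and was 0.24 ± 0.0679 higher in Tmem175-/- without antigen (edgeR adjusted p 0.0121). Mitf fell by 1.08 and 1.46 and was 0.23 higher in Tmem175-/- without antigen, whereas Tfe3 had 0.00 and -0.04 and was not called. The change with antigen differed between genotypes for Tfeb (-0.36 ± 0.11) and Mitf (-0.39 ± 0.0641), as for 8.39% of all genes tested. Whether these transcription factors had a part in the changes of the lysosomal genes was not tested.

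Other lysosomal genes, 41 listed and 33 tested, were counted in the same way. With antigen in WT 16 fell and 12 rose (median 0.02), against 34.5% of all genes lower and 33.5% higher. In Tmem175-/- 17 fell and 14 rose (median -0.20), against 34.6% of all genes lower and 33.8% higher. Without antigen 13 were higher and 2 lower in Tmem175-/- (median 0.09), against 9.62% of all genes higher and 7.25% lower. Acp5, the tartrate-resistant acid phosphatase, moved against most of the 24 hydrolases: it was at 26.7, 26 and 24.7 CPM without and 227, 208 and 209 CPM with antigen in WT, 8.31-fold higher. It was also 2.55-fold higher in Tmem175-/- without antigen, at 70, 53.7 and 73.5 CPM. The largest fall on this list after Atp6v0d2 was that of the tetraspanin Tspan7 (-2.05), at 0.333 CPM on average with antigen, and then of the transporter Mfsd12 (-1.20).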

How the data were processed

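RNA was extracted with Trizol and the libraries are of poly(A) RNA, per the labels' protocols. The authors deposited raw counts per Ensembl gene for 24 libraries; reads were trimmed with fastp and the build was GRCm39, per the submitters' processing notes. The aligner, counter and annotation are not given in the sources used here. Groups came from the sample titles.

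All 24 libraries entered 1 edgeR 4.0.16 fit (R 4.3.3; TMM scaling, filterByExpr, robust quasi-likelihood test, 16 residual degrees of freedom), with 11 comparisons of 8 groups. Of 55487 genes 14099 were tested, holding 99.9% of counts, and 346 identifiers had no symbol. P-values were adjusted by Benjamini-Hochberg over all genes tested, with 0.05 as the threshold and no minimum fold. CPM was computed on library sizes multiplied by the TMM factors, and CPM per kb with the longest transcript in GENCODE vM21. The fit was also run on simulated counts with changes planted only in the Tmem175-/- libraries without antigen, unlike the real data, and no result here rests on that run. At 17744540 to 24898552 counts per library the common biological coefficient of variation was 5.01%. Alternatives were DESeq2 1.42.0, median-of-ratios scaling, no filter, a replicate block, a minimum fold of 1.2, no immunoglobulin genes, a fit of only the groups compared, the omission of each library in turn and, added after seeing the data, removal of a transcript length trend.

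The 48 genes, the gene lists and the tests were chosen with earlier results of these data known. Any of the 48 could be named; values by library are given for Tmem175, for the 3 genes per class with the largest change in 3 comparisons and the 4 with the smallest p in the difference of responses, and for some further genes chosen after their values were seen. Promoter windows are RefSeq's on GRCm38.p6; that build differs from the count table's, so no other coordinates are given.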

Additional observations from a re-analysis of the deposited data

Results flagged for a closer look

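The change with antigen differed between the genotypes in a test of the difference itself (edgeR quasi-likelihood test of the interaction, Benjamini-Hochberg over all genes tested) for 9 genes. The log2 differences, Tmem175-/- minus WT, were -0.29 ± 0.0616 (SE) for Man2b1, -0.26 ± 0.0666 for Naglu, -0.24 ± 0.0633 for Fuca1, -0.22 ± 0.0545 for Npc1, -0.21 ± 0.0493 for Pla2g15 and -0.21 ± 0.0636 for Atp6v1c1. They were -0.19 ± 0.0466 for Atp6v1b2, -0.19 ± 0.0553 for Atp6v1a and -0.19 ± 0.0485 for Glb1. The edgeR adjusted p-values ranged from 0.00268 for Man2b1 to 0.0332 for Atp6v1c1. Man2b1, Naglu, Fuca1, Pla2g15 and the 3 pump genes fell further with antigen in Tmem175-/- co-cultures. Glb1 rose less there, and Npc1 rose in WT and was not called in Tmem175-/-.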

How the results depend on the processing

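No member called in the 7 comparisons of genotype and antigen changed direction under the alternatives run; members that were not called were not followed. Under a minimum fold of 1.2 the members called were 0 in each of the 4 comparisons of genotype and in the difference of responses, 30 for antigen in WT and 27 in Tmem175-/-. All genes called were 687, 682, 584 and 684 by genotype without antigen, with antigen, with IL-1beta and with IL-18. They were 182 in the difference of responses, and 6546 and 6433 for antigen in WT and Tmem175-/-. With the compared libraries alone there were 5 with antigen by genotype and 5 in the difference of responses, beside 1819 and 804 of all genes. For IL-1beta in WT the count was 1 with no filter, beside 79 of all genes. In Tmem175-/- it was 1 with DESeq2 and 1 with no filter, beside 44 and 287 of all genes. For IL-18 in Tmem175-/- it was 2 with DESeq2, beside 237 of all genes. Leaving out each replicate gave 18 to 27 by genotype without antigen, 4 to 10 with antigen, 6 to 10 with IL-1beta and 8 to 15 with IL-18. All genes called were 1651 to 2624, 1642 to 1939, 1321 to 1724 and 1867 to 2562 in the same order. The same omissions gave 39 to 41 for antigen in WT, 39 to 43 in Tmem175-/-, 3 to 12 for the difference of responses, 0 to 2 for IL-1beta in Tmem175-/-, 0 to 1 for IL-18 in Tmem175-/- and 0 for either cytokine in WT. All genes called were 9189 to 9271, 9141 to 9414, 819 to 1697, 1 to 284, 0 to 233 and, for either cytokine in WT, 0 to 7. The causes of these changes were not tested.

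With a replicate block the counts were 29, 11, 11 and 23 by genotype without antigen, with antigen, with IL-1beta and with IL-18, 42 and 43 for antigen in WT and Tmem175-/-, and 13 for the difference of responses. All genes called were then 2876, 2636, 2372 and 3437 by genotype, 9826 and 9842 for antigen, and 1596 for the difference. With the replicate block 1 member was called for IL-1beta in WT, 5 in Tmem175-/-, 0 for IL-18 in WT and 1 in Tmem175-/-. Of all genes, 102, 422, 1 and 274 were then called, against 8, 6, 0 and 30 without the block. The labels do not say what a number shares, so the numbers were not treated as pairs. Deviations of same-numbered libraries were nevertheless mostly correlated above 0. The correlations ran from -0.00993 to 0.229 for replicate 1, from 0.0371 to 0.358 for replicate 2 and from 0.00799 to 0.0877 for replicate 3. Only replicate 1 in the antigen comparison of Tmem175-/- lay below 0. Under every alternative other than the minimum fold, 39 of 40 calls held for antigen in WT and 39 of 42 in Tmem175-/-, against 15 of 24 by genotype without antigen, 3 of 10 with antigen, 4 of 10 with IL-1beta, 7 of 16 with IL-18 and 2 of 9 for the difference of responses. The lowest count of a member in a library was 246.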
